A study of Homo sapiens with 12 samples.

Results

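The heat shock proteins and their partner chaperones were followed through the relapses of a chemotherapy-treated leukemia cell line. The members included genes whose symbols join HSPA, HSPB, HSPD, HSPE, HSPH, HSP90, DNAJA, DNAJB or DNAJC to a short ending of letters and digits. Hyphenated symbols, such as HSPE1-MOB4, were left out. The 8 subunit genes of the TRiC chaperonin (TCP1 and CCT2 to CCT8) and the heat shock factor genes HSF1 and HSF2 were also members. Of 26481 genes with a count in every sample, 87 had such a name, and 72 of these held at least 10 counts in at least 2 samples. All 72 passed the filter on low counts and were tested together with 14164 genes in all. The 15 names below that limit were HSPA1L, HSPA2, HSPA12A, HSPA12B, HSPB2, HSPB3, HSPB7, HSPB8, HSPB9, DNAJB3, DNAJB7, DNAJB8, DNAJC5B, DNAJC5G and the pseudogene DNAJA1P5. The letters of the rule also took in HSPA7, a pseudogene, and HSPBP1 and HSPBAP1, which encode proteins that bind heat shock proteins.

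Chaperones keep unfolded proteins from aggregating and help them to reach their folded state. HSP70 proteins bind short exposed stretches of a client in a cycle driven by ATP, J-domain proteins of the DNAJ families deliver clients and start that cycle, HSP110 proteins and other exchange factors release the nucleotide, and HSP90 and the ring-shaped TRiC complete the folding of kinases, receptors, actin and tubulin. Each compartment has its own set, and the heat shock factors switch on many of the cytosolic genes when proteins unfold, while the unfolded protein response does so for the endoplasmic reticulum.

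RNA sequencing counts were available for 12 cultures of HEL, an established erythroleukemia line used as a model of AML, all from 1 barcoded population of cells. Non-treated cells (NT, n = 2) were grown with 0.1 µM dimethyl sulfoxide. The other cultures were relapses, taken when cells that had survived 72 to 74 hours with a regimen had grown back to the number seeded, about 30 days later. The regimens were doxorubicin at 1.8 µM (Doxo, n = 3), the same together with cytarabine at 6 µM (Doxo+Cyta, n = 3) and these drugs plus the hypomethylating agent decitabine at 0.1 µM (Doxo+Cyta+DAC, n = 4), so decitabine was present only together with the other drugs. The comparisons asked how relapses differed from non-treated cells and what adding decitabine changed. Levels are counts-per-million values (CPM), scaled by the TMM method.

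Total counts ran from 12763582 to 19106235 per library, and 3 counts, taken as the lowest level a library could show, came to 0.154 to 0.238 CPM. Doxo 4 and Doxo+Cyta 20 stood apart from the other libraries of their groups. A chi-square of the counts of Doxo 4 against its group mates came to 27.3 and 29.7 per degree of freedom, against 3.10 between those mates, and that of Doxo+Cyta 20 to 46.8 and 48.6 against 7.34. No pair agreed within sampling noise. Most of the erythroid and megakaryocytic genes that mark HEL were clearly present in every library. HBG2 was at 3124 to 6411 CPM, ITGA2B at 857 to 1713 CPM and GATA1 at 172 to 421 CPM. HBZ, however, was only at 0.821 to 3.57 CPM, and PF4 held at most 2 counts. Markers of other cells were low or absent (MS4A1 and CD163 at 0 counts, CD3E at most 2), although CD2 reached 55.7 CPM, CD79B 36.0 CPM and LYZ 44.9 CPM. Fewer cells with a transcript and less of that transcript per cell cannot be told apart in such bulk samples.

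Chaperone transcripts took up more of the library in Doxo+Cyta+DAC relapses than in any other group. The 72 members summed to 12795 and 13307 CPM in NT, 14044 to 14321 CPM in Doxo, 12944 to 13772 CPM in Doxo+Cyta and 20507 to 22151 CPM in Doxo+Cyta+DAC. As a share of counts this was 1.39% ± 0.0237 (SD, n = 2) in NT and 2.09% ± 0.0529 (SD, n = 4) in Doxo+Cyta+DAC. The 4 libraries with decitabine lay above all 8 others.

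Calls were made with edgeR's quasi-likelihood test in 1 fit over all 12 libraries, with Benjamini-Hochberg adjustment over all tested genes and a threshold of 0.05. Against NT, 33 of 72 members (45.8%) were higher in Doxo+Cyta+DAC, against 24.9% of all genes tested, and 8 (11.1%) were lower, against 23.7%. In Doxo+Cyta+DAC relative to Doxo, 35 members were higher (background 29.1%) and 16 lower (background 30.4%). Against Doxo+Cyta, 36 members were higher (background 29.8%) and 15 lower (background 30.5%). The median log2 fold change of the members was 0.25, 0.25 and 0.34 in these comparisons, while that of all genes was 0.02, -0.01 and below 0.01. These comparisons share the decitabine libraries.

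A stricter count asked for members whose 4 decitabine libraries all lay on the same side of all 8 others and that were called in all 3 comparisons. It held 31 members on the high side and 6 on the low side, while 17.5% and 16.9% of all genes tested met it. The 6 on the low side were HSPA7, DNAJB1, DNAJB2, DNAJB5, DNAJC4 and DNAJC18.

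**Figure D1:**
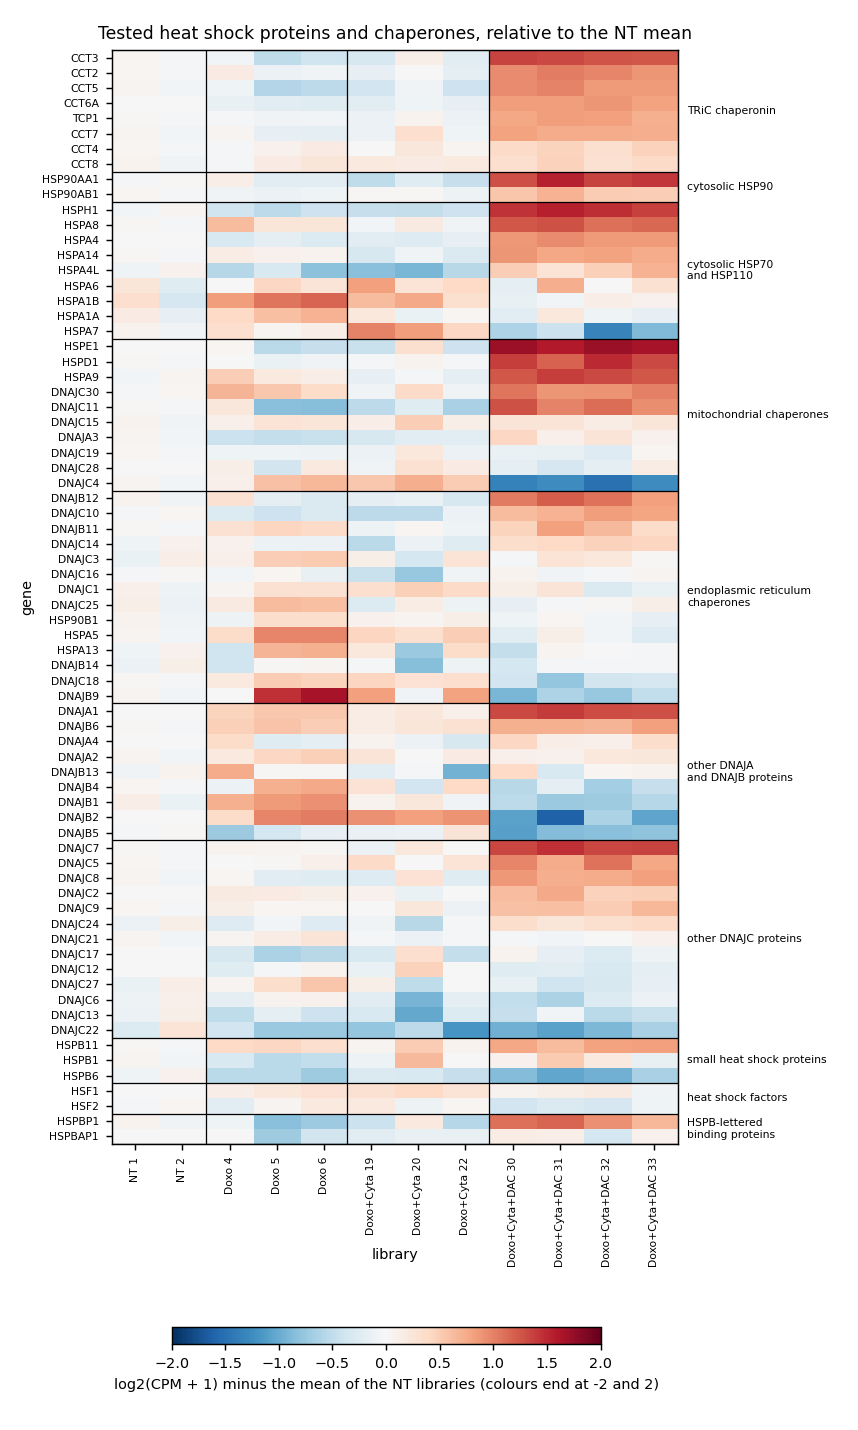
Each row is 1 of the 72 tested members and each column a library. Colour gives log2(CPM + 1) minus the mean of the NT libraries, and rows are grouped by family or compartment. The TRiC, cytosolic HSP90 and several HSP70, HSP110 and mitochondrial rows were high in the 4 Doxo+Cyta+DAC libraries, and DNAJB1, DNAJB2 and DNAJC4 were low there.

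TRiC is a double ring of 8 different subunits in the cytosol that folds actin and tubulin. All 8 subunit genes were higher in Doxo+Cyta+DAC than in NT, against 24.9% of all genes. Their log2 fold changes ran from 0.37 (CCT8) to 1.30 (CCT3), with a median of 0.81. CCT3 was at 336 and 317 CPM in NT, 313, 230 and 247 CPM in Doxo, 262, 352 and 279 CPM in Doxo+Cyta, and 833, 820, 781 and 777 CPM in Doxo+Cyta+DAC. Its decitabine libraries were thus above all others, by a log2 fold change of 1.30 ± 0.14 relative to NT (SE, adjusted p = 1.39e-05). CCT2 rose from 298 ± 10.3 CPM (SD, n = 2) to 580 ± 25.4 CPM (SD, n = 4), a log2 fold change of 0.96 ± 0.11 (SE, adjusted p = 1.55e-05). TCP1, which encodes the alpha subunit, was at 441 and 425 CPM in NT and at 742, 770, 763 and 706 CPM in Doxo+Cyta+DAC (log2 fold change 0.78 ± 0.09, adjusted p = 2.56e-05). CCT5, CCT6A and CCT7 changed by 0.91, 0.84 and 0.76.

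CCT4 and CCT8 moved least. CCT8 was at 1343 and 1229 CPM in NT and 1622, 1763, 1593 and 1674 CPM in Doxo+Cyta+DAC, and CCT4 at 350 and 328 CPM against 440, 462, 424 and 465 CPM. Without NT replicate 2 neither was called relative to NT (adjusted p = 0.0982 for CCT8 and 0.0749 for CCT4). CCT8 also did not pass relative to Doxo+Cyta (log2 fold change 0.19 ± 0.09, adjusted p = 0.0719). The other 7 subunits did, against 29.8% of all genes. The subunits are present in equal number in the ring, but their CPM per kilobase of exon differed. CCT8 stood at 556 CPM per kb in NT and the other 7 between 93.3 (CCT6A) and 177 (TCP1) CPM per kb. This length takes in all annotated exon bases of a gene and need not be that of the transcript expressed. Numbers of transcripts were thus not measured. In Doxo+Cyta+DAC the range was 167 (CCT6A) to 718 (CCT8) CPM per kb. Exons of TCP1 share 18.5% of their bases with ACAT2 on the opposite strand, and fragments were counted without regard to strand.

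Both cytosolic HSP90 genes were higher in Doxo+Cyta+DAC. HSP90AA1, the stress-inducible form, was at 548 and 564 CPM in NT, 607, 475 and 478 CPM in Doxo, 389, 469 and 403 CPM in Doxo+Cyta, and 1357, 1612, 1417 and 1479 CPM in Doxo+Cyta+DAC. Every decitabine library was above every other library, and the log2 fold change was 1.40 ± 0.13 relative to NT and 1.80 ± 0.11 relative to Doxo+Cyta (adjusted p = 4.02e-06 and 7.32e-08). HSP90AB1, the constitutive form, had the most CPM per kilobase of annotated exon among the members (801 CPM per kb in NT). It was at 2370 and 2265 CPM in NT and at 3396, 3734, 3287 and 3254 CPM in Doxo+Cyta+DAC, a log2 fold change of 0.56 ± 0.09 (adjusted p = 0.000271).

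The cytosolic HSP70 and HSP110 genes went in different directions. HSPA8, the constitutive HSP70 of the cytosol (chr11:123057492-123062335, minus strand, GRCh38), was at 1277 and 1241 CPM in NT, 1960, 1491 and 1485 CPM in Doxo, 1212, 1421 and 1194 CPM in Doxo+Cyta, and 2976, 3034, 2710 and 2779 CPM in Doxo+Cyta+DAC. No decitabine library overlapped another group, and the log2 fold change relative to NT was 1.19 ± 0.13 (adjusted p = 1.2e-05). The exchange factor HSPH1 stood at 97.1 and 105 CPM in NT, between 70.1 and 76.2 CPM in the 6 relapses without decitabine, and at 276, 298, 282 and 263 CPM with it. It was thus below NT in one kind of relapse and above it in the other, with log2 fold changes from NT of -0.45 ± 0.10 for Doxo, -0.46 ± 0.10 for Doxo+Cyta and 1.47 ± 0.10 for Doxo+Cyta+DAC (adjusted p = 0.014, 0.0428 and 5.31e-07). The call in Doxo ended without NT replicate 1 (adjusted p = 0.0999), NT replicate 2 (0.166) or Doxo replicate 5 (0.0572). HSPA4, another HSP110 protein, rose from 154 ± 0.742 CPM (SD, n = 2) to 283 ± 9.76 CPM (SD, n = 4), and HSPA14, which sits at the ribosome, from 81.0 ± 1.69 to 142 ± 5.65 CPM, log2 fold changes of 0.88 ± 0.09 and 0.81 ± 0.11. HSPA4L rose by 0.54 ± 0.20 from 7.68 CPM (adjusted p = 0.0411), a call that ended in several alternatives.

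The strictly stress-inducible HSP70 genes did not follow HSPA8. HSPA1B was at 7.72 and 4.47 CPM in NT, 11.3, 13.6 and 14.5 CPM in Doxo, 9.71, 10.7 and 7.64 CPM in Doxo+Cyta, and 5.21, 5.64, 6.56 and 6.34 CPM in Doxo+Cyta+DAC. It was highest in Doxo, and the decitabine libraries lay within the range of NT (log2 fold change -0.04 ± 0.23, adjusted p = 0.889). HSPA1B was called lower in Doxo+Cyta+DAC than in Doxo and than in Doxo+Cyta. HSPA1A held 3 to 20 counts per library and HSPA6 at most 44. HSPA1A and HSPA1B (chr6:31815514-31817942 and chr6:31827735-31830254) encode nearly identical transcripts, as do HSPA6 and HSPA7, and both HSPA1 genes have copies on alternate contigs, so their counts are uncertain. HSPA7 was lower in Doxo+Cyta+DAC than in NT, by a log2 fold change of -0.81 ± 0.21 (adjusted p = 0.00634, or 0.0602 without NT replicate 1).

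**Figure D2:**
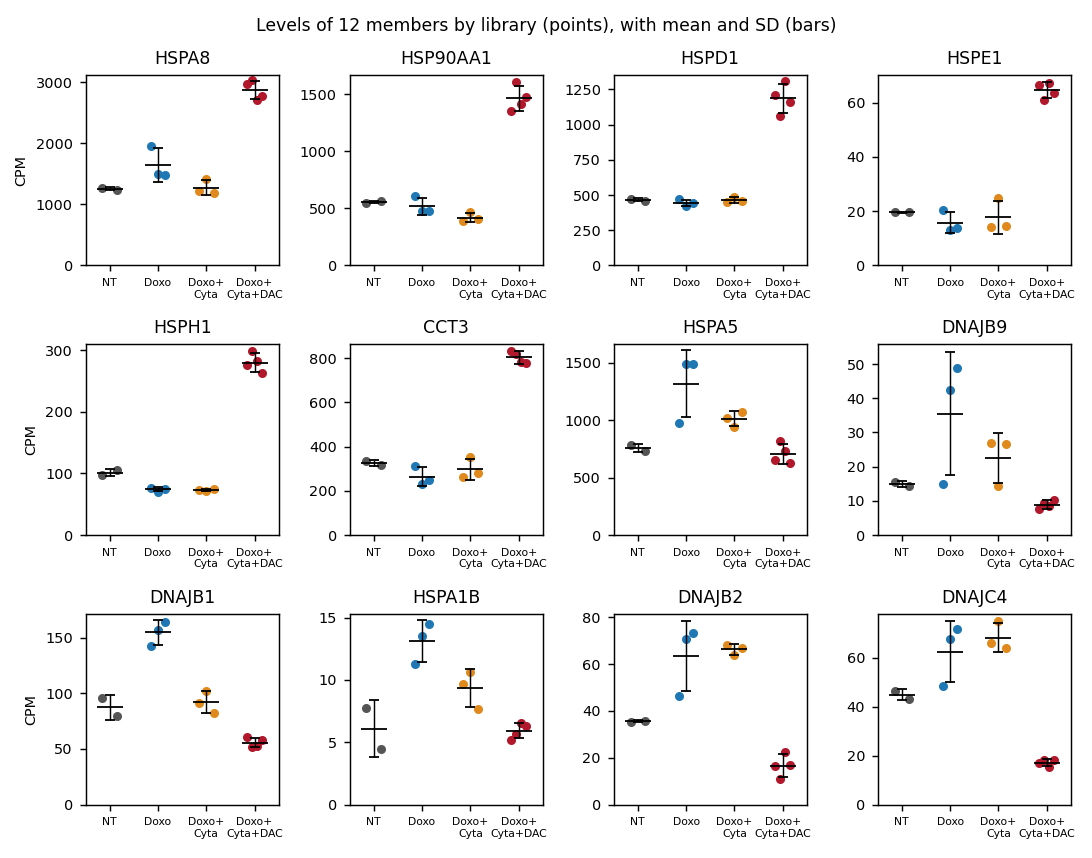
Each panel shows CPM of 1 member (vertical axis from 0) in the 12 libraries by group, with points for libraries and bars for the mean and SD. HSPA8, HSP90AA1, HSPD1, HSPE1, HSPH1 and CCT3 were highest in Doxo+Cyta+DAC, HSPA5, DNAJB9, DNAJB1 and HSPA1B had their highest libraries in Doxo, and DNAJB2 and DNAJC4 were lowest in Doxo+Cyta+DAC.

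In mitochondria, HSPA9 (mortalin) pulls imported proteins through the membrane, and HSPD1 (HSP60) with its lid HSPE1 (HSP10) encloses them for folding. All 3 were higher in Doxo+Cyta+DAC than in every other library. HSPD1 (chr2:197486584-197500274, minus strand) was at 473 and 459 CPM in NT, 469, 423 and 445 CPM in Doxo, 452, 489 and 459 CPM in Doxo+Cyta, and 1213, 1061, 1311 and 1162 CPM in Doxo+Cyta+DAC. The 8 other libraries spanned only 423 to 489 CPM, and the log2 fold change relative to NT was 1.35 ± 0.11 (adjusted p = 1.37e-06). HSPE1 was at 19.8 and 19.5 CPM in NT and at 66.6, 60.9, 67.3 and 63.5 CPM in Doxo+Cyta+DAC, which at 1.72 ± 0.23 (adjusted p = 5.69e-05) was the largest log2 rise of any member relative to NT. HSPA9 was at 312 and 334 CPM in NT, 453, 368 and 355 CPM in Doxo, 286, 314 and 283 CPM in Doxo+Cyta, and 764, 841, 807 and 762 CPM in Doxo+Cyta+DAC (log2 fold change from NT 1.30 ± 0.12, adjusted p = 3.13e-06).

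HSPD1 and HSPE1 lie head to head and overlap at their starts, and 63.8% of the exon bases of HSPE1 are shared with the readthrough gene HSPE1-MOB4, so the level of HSPE1 is uncertain. DNAJC11, a J-domain protein of the complex that shapes the inner membrane, rose by a log2 fold change of 1.10 ± 0.26 (adjusted p = 0.00324), and DNAJC30, which acts with respiratory complexes, by 1.20 ± 0.22 from 2.82 CPM (adjusted p = 0.000689). Exons of DNAJC11 share 43.1% of their bases with THAP3. DNAJC4 went the other way: 46.4 and 43.2 CPM in NT, 48.3, 67.5 and 71.8 CPM in Doxo, 65.9, 74.9 and 63.9 CPM in Doxo+Cyta, and 17.0, 18.2, 15.3 and 18.1 CPM in Doxo+Cyta+DAC. All its decitabine libraries were below all others (log2 fold change -1.39 ± 0.15 relative to NT, adjusted p = 1.13e-05). Together 5 of the 10 mitochondrial members were higher with decitabine relative to NT, against 24.9% of all genes, and 1 was lower, against 23.7%.

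Promoter sequences are shown for 7 of the 9 members whose window held a perfect heat shock element or endoplasmic reticulum stress element, to place the motifs beside the levels. Those of HSPA6 and DNAJA1 are not shown. RefSeq windows (250 bases before to 50 after a start, GRCh38.p14) existed for 64 of the 72 members, 87 windows in all. A heat shock element, the site of the heat shock factors, was searched as GAANNTTCNNGAA, on both strands, and stood in 7 of these windows (8.05%) against 0.49% of 35116 windows of all genes. The 7 genes were HSPA6, HSPA8, HSP90AA1, HSP90AB1, HSPD1, DNAJA1 and DNAJB6. An endoplasmic reticulum stress element, searched as CCAAT, any 9 bases and CCACG, stood in 2.3% of member windows, those of HSPA5 and HSP90B1, against 0.0769% of all. CACGTG, an E-box, stood in 12.6% against 7.26%. A match describes letters and not a bound site. Stretches outside annotated exons, or 30 bases around a match inside one, read 5′ to 3′ on the strand of the gene, with the matches in capitals.
HSPA8, chr11:123062336-123062386, minus strand: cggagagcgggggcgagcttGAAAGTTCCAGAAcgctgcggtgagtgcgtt
HSPA8, chr11:123062171-123062200, minus strand: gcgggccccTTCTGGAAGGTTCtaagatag
HSP90AA1, chr14:102087112-102087141, minus strand: ggagggttcTTCCGGAAGGTTCgggaggct
HSP90AB1, chr6:44247763-44247942, plus strand: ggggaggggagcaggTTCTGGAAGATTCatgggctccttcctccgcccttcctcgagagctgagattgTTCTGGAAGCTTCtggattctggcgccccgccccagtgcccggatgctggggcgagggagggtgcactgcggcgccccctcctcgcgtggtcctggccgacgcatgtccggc
HSPD1, chr2:197500061-197500090, minus strand: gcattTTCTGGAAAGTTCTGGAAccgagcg
DNAJB6, chr7:157336854-157336953, plus strand: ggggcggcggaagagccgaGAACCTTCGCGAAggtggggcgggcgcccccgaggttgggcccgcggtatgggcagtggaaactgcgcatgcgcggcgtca
HSPA5, chr9:125241388-125241473, minus strand: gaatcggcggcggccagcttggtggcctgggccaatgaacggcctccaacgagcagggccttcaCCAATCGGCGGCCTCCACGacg
HSP90B1, chr12:103930212-103930310, plus strand: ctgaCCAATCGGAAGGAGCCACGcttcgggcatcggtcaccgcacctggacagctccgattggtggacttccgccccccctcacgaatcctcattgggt
HSP90B1, chr12:103930315-103930344, plus strand: tgggtgCGTGGTGCGGCGCGATTGGtgggt

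The run of capitals in HSPD1 holds 2 overlapping matches. Of the 7 genes with the heat shock element, 6 were higher in Doxo+Cyta+DAC than in NT, where 45.8% of members and 24.9% of all genes were, at log2 fold changes of 1.19 (HSPA8), 1.40 (HSP90AA1), 0.56 (HSP90AB1), 1.35 (HSPD1), 1.34 (DNAJA1) and 0.74 (DNAJB6), while HSPA6, at 13 to 44 counts per library, was not called. A link between motif and level was not tested. Neither gene with the endoplasmic reticulum stress element was called in that comparison. HSPH1 and all TRiC subunits with a window rose without a perfect heat shock element there. The windows of HSPA1A, HSPA1B and DNAJB1 held none either. HSPE1 also rose and its window held none. The HSPD1 stretch printed above, however, lies within the annotated span of HSPE1, beyond that window. The shorter GAANNTTC, which is part of the longer motif, stood in 19.5% of member windows against 6.77% of all, those of HSPA1A, HSPA1B, DNAJB1, CCT2 and TCP1 among them. TTCNNGAA, likewise part of it, stood in 14.9% against 7.74%, with the windows of HSPA9, CCT4 and HSPA4L among them.

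Of 14 chaperones of the endoplasmic reticulum tested, 4 (28.6%) were higher in Doxo+Cyta+DAC than in NT, near the 24.9% of all genes, and 1 (7.14%) was lower, against 23.7%. Their median log2 fold change was -0.01. HSPA5 (BiP), the HSP70 of this compartment, was at 783 and 733 CPM in NT, 979, 1490 and 1487 CPM in Doxo, 1021, 943 and 1071 CPM in Doxo+Cyta, and 652, 818, 728 and 631 CPM in Doxo+Cyta+DAC. The 2 highest libraries were Doxo 5 and Doxo 6, Doxo 4 lay within the range of Doxo+Cyta, and the decitabine libraries overlapped NT. Doxo was above NT by a log2 fold change of 0.80 ± 0.17 (adjusted p = 0.0114, but 0.11 without NT replicate 1, 0.126 without NT replicate 2, 0.057 without Doxo replicate 5 and 0.0558 without Doxo replicate 6), Doxo+Cyta+DAC was not called against NT (-0.10 ± 0.16, adjusted p = 0.621), and it was below Doxo (-0.90 ± 0.14, adjusted p = 8.01e-05).

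DNAJB9 (ERdj4), a J-domain protein that restrains the stress sensor IRE1, was at 15.5 and 14.3 CPM in NT, 15.01, 42.5 and 49.0 CPM in Doxo, 27.0, 14.2 and 26.7 CPM in Doxo+Cyta, and 7.47, 9.35, 8.45 and 10.3 CPM in Doxo+Cyta+DAC. Doxo 4 and Doxo+Cyta 20 were at the NT level and their group mates above it. The difference between Doxo and NT was not called (log2 fold change 1.25 ± 0.39, adjusted p = 0.0538), but it was without Doxo replicate 4 (adjusted p = 0.00171), without Doxo+Cyta replicate 20 (adjusted p = 0.029) and with DESeq2 (adjusted p = 0.0126), and Doxo+Cyta+DAC was lower than Doxo (-2.004 ± 0.32, adjusted p = 0.000119). HSP90B1 (GRP94), the HSP90 of this compartment, was at 935 and 841 CPM in NT and 831, 913, 858 and 791 CPM in Doxo+Cyta+DAC (log2 fold change -0.07 ± 0.12, adjusted p = 0.683).

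The 4 that rose relative to NT were DNAJB12, a membrane J-domain protein (1.08 ± 0.18, adjusted p = 0.000268), DNAJC10 or ERdj5, a reductase of disulfides (0.75 ± 0.13, adjusted p = 0.000489), DNAJB11 or ERdj3, a partner of BiP (0.59 ± 0.13, adjusted p = 0.00226) and DNAJC14 (0.42 ± 0.13, adjusted p = 0.0178). DNAJB12 went from 23.3 and 21.1 CPM in NT to 46.7, 52.8, 48.3 and 39.9 CPM in Doxo+Cyta+DAC. DNAJC18 fell, from 24.6 and 24.0 CPM in NT to 18.4, 13.8, 18.6 and 19.0 CPM (-0.48 ± 0.15, adjusted p = 0.0169). Without either NT library neither DNAJC14 nor DNAJC18 was called relative to NT (adjusted p of 0.179 and 0.0525 for DNAJC14, and of 0.101 and 0.0769 for DNAJC18).

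Of 9 other DNAJA and DNAJB proteins tested, the main J-domain partners of cytosolic HSP70, 2 (22.2%) rose and 3 (33.3%) fell with decitabine relative to NT, against 24.9% and 23.7% of all genes. DNAJA1, which works with HSPA8, was at 74.6 and 74.2 CPM in NT, 101, 109 and 109 CPM in Doxo, 82.2, 87.3 and 80.0 CPM in Doxo+Cyta, and 186, 198, 185 and 183 CPM in Doxo+Cyta+DAC. The groups did not overlap, and the log2 fold change with decitabine was 1.34 ± 0.10 relative to NT (adjusted p = 8.38e-07). DNAJB6, a suppressor of aggregation, followed a similar order at a lower size, with 68.5 and 66.8 CPM in NT, 95, 101 and 96.0 CPM in Doxo, 75.4, 80.1 and 83.7 CPM in Doxo+Cyta, and 111, 112, 110 and 120 CPM in Doxo+Cyta+DAC (0.74 ± 0.10, adjusted p = 6.09e-05).

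DNAJB1 (HSP40), a strongly heat-inducible partner of HSP70, differed from DNAJA1 in the place of the decitabine libraries. It was at 95.5 and 79.4 CPM in NT, 142, 157 and 164 CPM in Doxo, 91.6, 102 and 82.6 CPM in Doxo+Cyta, and 60.5, 51.4, 52.6 and 58.2 CPM in Doxo+Cyta+DAC. The Doxo libraries were above and the decitabine libraries below all others, with log2 fold changes of 0.82 ± 0.13 and -0.65 ± 0.12 relative to NT (adjusted p = 0.00351, or 0.0784 without NT replicate 2, and 0.000724) and of -1.47 ± 0.11 between these relapses (adjusted p = 3.37e-07). DNAJB2, which binds ubiquitinated clients, was at 35.3 and 35.9 CPM in NT, 46.2, 70.7 and 73.2 CPM in Doxo, 68.0, 63.8 and 67.1 CPM in Doxo+Cyta, and 16.4, 10.9, 22.6 and 16.7 CPM in Doxo+Cyta+DAC. Against NT its log2 fold change was 0.83 ± 0.24 for Doxo (adjusted p = 0.0408, but 0.0549 to 0.232 in 8 fits that each left out 1 library), 0.90 ± 0.24 for Doxo+Cyta (not called, adjusted p = 0.0733) and -1.09 ± 0.22 with decitabine (adjusted p = 0.00119). DNAJB5 fell from 2.96 ± 0.111 CPM (SD, n = 2) to 1.13 ± 0.183 CPM (SD, n = 4), a log2 fold change of -1.39 ± 0.28 (adjusted p = 0.00119).

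Of 13 other DNAJC proteins tested, 5 (38.5%) were higher in Doxo+Cyta+DAC than in NT and 1 (7.69%) lower, against 24.9% and 23.7% of all genes, and their median log2 fold change was below 0.01. DNAJC7, which holds both HSP70 and HSP90, was at 67.1 and 65.4 CPM in NT, between 60.8 and 77.3 CPM in the 6 relapses without decitabine, and at 169, 184, 168 and 171 CPM with it (1.38 ± 0.12, adjusted p = 1.7e-06). Exons of DNAJC7 share 18.7% of their bases with CNP. DNAJC5, the cysteine string protein of vesicles, rose by 0.92 ± 0.14, DNAJC8, a splicing protein, by 0.79 ± 0.15, DNAJC9, a histone chaperone, by 0.59 ± 0.11 and DNAJC2, which partners HSPA14 at the ribosome, by 0.59 ± 0.12 (adjusted p between 0.000157 and 0.00106). DNAJC22, at 4.38 ± 1.39 CPM (SD, n = 2) in NT, was lower with decitabine (-1.23 ± 0.30, adjusted p = 0.00368).

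Small heat shock proteins hold unfolded clients without ATP, and few were present. HSPB1 (HSP27) was at 70.1 and 64.9 CPM in NT, 54.7, 46.0 and 47.5 CPM in Doxo, 62.9, 106 and 66.9 CPM in Doxo+Cyta, and 71.8, 97.0, 77.6 and 60.6 CPM in Doxo+Cyta+DAC. NT lay within the decitabine range (log2 fold change 0.19 ± 0.21, adjusted p = 0.483), and Doxo lay below it (Doxo+Cyta+DAC relative to Doxo 0.64 ± 0.19, adjusted p = 0.009). HSPB11, a subunit of the transport machinery of cilia, rose by 0.78 ± 0.14 relative to NT (adjusted p = 0.00054). HSPB6 held 18 and 20 counts in NT and 2, 0, 1 and 4 counts in Doxo+Cyta+DAC, and was called lower (adjusted p = 0.0006). HSPBP1, an exchange factor for HSP70, rose from 44.2 and 40.0 CPM in NT to 91.9, 95.3, 80.0 and 67.5 CPM (0.99 ± 0.25, adjusted p = 0.00463, or 0.0548 without NT replicate 2).

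Neither heat shock factor gene was called in Doxo+Cyta+DAC against NT. HSF1 was at 193 and 190 CPM in NT and at 202, 207, 218 and 182 CPM in Doxo+Cyta+DAC (log2 fold change 0.08 ± 0.10, adjusted p = 0.547), and was lower there than in Doxo+Cyta (-0.25 ± 0.09, adjusted p = 0.0218, or 0.0664 without Doxo+Cyta+DAC replicate 33). HSF2 was at 53.4 and 56.2 CPM in NT and at 41.7, 44.8, 43.1 and 51.6 CPM in Doxo+Cyta+DAC (-0.28 ± 0.14, adjusted p = 0.113). It was called lower there than in Doxo (-0.30 ± 0.12, adjusted p = 0.0458) and lower than in Doxo+Cyta (-0.32 ± 0.12, adjusted p = 0.0334), calls that ended when any of several single libraries was left out (adjusted p up to 0.224 without Doxo replicate 6 and 0.137 without Doxo+Cyta replicate 19). HSF1 activity is set mainly on the protein, which was not measured.

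**Figure D3:**
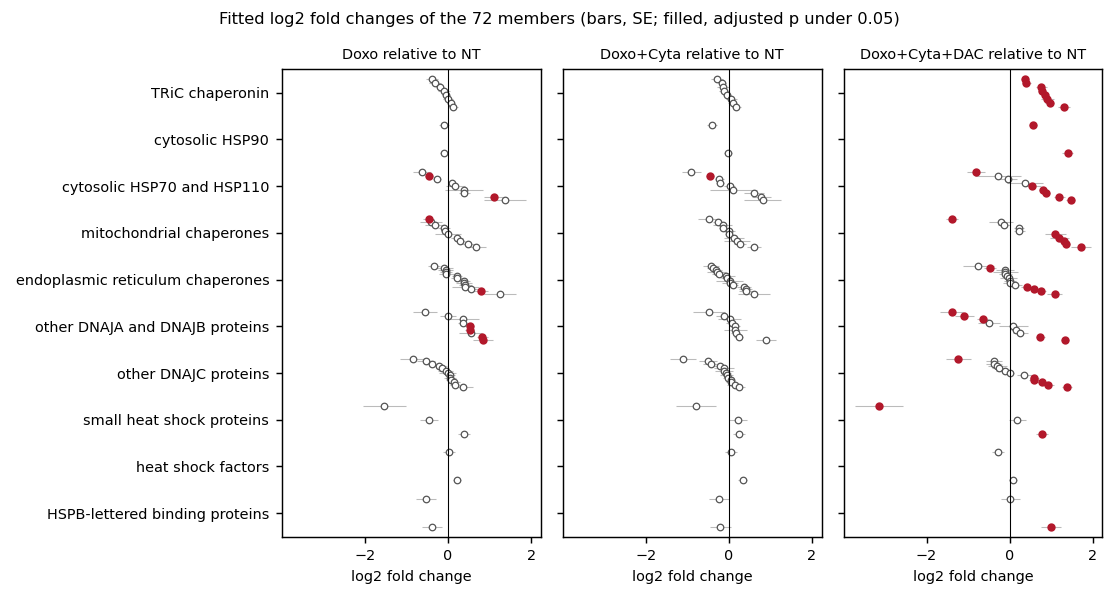
Each point is the fitted log2 fold change of 1 of the 72 members relative to NT, with its SE as a bar, in Doxo, Doxo+Cyta and Doxo+Cyta+DAC (panels, left to right) and by family (rows). Filled points passed an adjusted p of 0.05. In the Doxo+Cyta+DAC panel 33 filled points lie to the right of 0 and 8 to the left, and in the other panels most points are open.

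Fewer members were called in the relapses without decitabine. In Doxo relative to NT, 6 members (8.33%) were higher (background 6.06%) and 2 (2.78%) lower (background 4.63%), shares near those of all genes. The members' median log2 fold change was 0.04. The 6 were HSPA1B (1.10 ± 0.24, adjusted p = 0.0118), DNAJB2, DNAJB1, HSPA5, DNAJB6 (0.52 ± 0.10, adjusted p = 0.00844) and DNAJA1 (0.52 ± 0.10, adjusted p = 0.00783). The 2 were HSPH1 and DNAJA3, a mitochondrial J-domain protein that was at 49.6 and 46.3 CPM in NT and 35.3, 34.1 and 34.8 CPM in Doxo (-0.47 ± 0.12, adjusted p = 0.029). Without Doxo replicate 5 or 6, neither HSPA1B (adjusted p = 0.0506 and 0.056) nor DNAJA3 (0.0901 and 0.0796) was called. DNAJB6 was not called without Doxo replicate 5 (adjusted p = 0.051). The count of 8 rested on single libraries: it was 2 without NT replicate 1, 0 without NT replicate 2, 20 without Doxo replicate 4, 2 without Doxo replicate 5, 4 without Doxo replicate 6 and 17 without Doxo+Cyta replicate 20, and DESeq2 called 13.

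In Doxo+Cyta relative to NT, edgeR called 0 members higher (background 0.911%) and 1 lower (background 0.551%), HSPH1. At an unadjusted p under 0.05 there were 9 higher and 9 lower, and DESeq2 called 4 and 3. HSPH1 was no longer called without either NT library, without Doxo replicate 5 or 6, without Doxo+Cyta replicate 19 or 22, or without Doxo+Cyta+DAC replicate 30, 32 or 33, and the count reached 5 without Doxo replicate 4 and 3 without Doxo+Cyta+DAC replicate 31.

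Adding cytarabine to doxorubicin was compared directly. In Doxo relative to Doxo+Cyta, 3 members were higher (background 2.32%), namely DNAJB1 (0.75 ± 0.12, adjusted p = 0.00457), HSPA9 (0.41 ± 0.10, adjusted p = 0.0461) and DNAJA1 (0.36 ± 0.09, adjusted p = 0.0438). With upper-quartile scaling HSPA9 and DNAJA1 were not called (adjusted p = 0.0921 and 0.0798). With edgeR, 0 were lower (background 1.07%), 3 at an unadjusted p under 0.05 and 1 with DESeq2. DNAJB1 was at 142 CPM or more in each Doxo library and at 102 CPM or less in each Doxo+Cyta library. The count was 1 without NT replicate 1 or 2, Doxo replicate 5 or 6, Doxo+Cyta replicate 19 or 22, or Doxo+Cyta+DAC replicate 30, 32 or 33, and 5 without Doxo replicate 4 or Doxo+Cyta replicate 20.

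Further genes of the folding machinery were taken as lists. Of 23 co-chaperones of HSP70 and HSP90 tested, 15 (65.2%) were higher and 2 (8.7%) lower in Doxo+Cyta+DAC than in NT, against 24.9% and 23.7% of all genes, with a median log2 fold change of 0.71. AHSA1, which speeds up the ATPase of HSP90, rose by 1.40 ± 0.16 and STIP1 (HOP), which passes clients from HSP70 to HSP90, by 1.13 ± 0.14, while BAG3, which leads clients to autophagy, fell by 0.61 ± 0.15 on the log2 scale. Of 14 prefoldin subunits and other chaperonin cofactors, which hand tubulin and actin to TRiC or receive them from it, 8 (57.1%) were higher, with a median of 0.40. Of 14 further mitochondrial folding and protease genes 6 (42.9%) were higher and 1 (7.14%) lower, with GRPEL1, the exchange factor of HSPA9, at 1.02 ± 0.14.

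In the endoplasmic reticulum list 8 of 24 (33.3%) were higher and 7 (29.2%) lower with decitabine relative to NT, shares near the 24.9% and 23.7% of all genes. Those that rose included the folding enzymes PDIA3 (0.52 ± 0.10), PDIA4 (0.44 ± 0.12) and the exchange factor HYOU1 (0.53 ± 0.12). Those that fell included XBP1 (-0.56 ± 0.14), DDIT3 (-0.68 ± 0.19) and HERPUD1 (-0.98 ± 0.19), a regulator, a death-linked factor and a degradation protein of the unfolded protein response. SDF2L1, a partner of BiP, rose by 1.32 ± 0.25.

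Lists of other genes, chosen with earlier results of these data known, also differed between these groups. All 15 replication genes were higher in Doxo+Cyta+DAC than in NT, Doxo and Doxo+Cyta, against 24.9%, 29.1% and 29.8% of all genes. Their summed level was 4379 to 4626 CPM there against 1599 to 2471 CPM in the 8 other libraries. Of 12 immediate early genes, which respond to stress within minutes, 9 were higher in Doxo than in NT, against 6.06% of all genes. Their summed level was 1843 to 2168 CPM in Doxo, 767 to 840 CPM in NT, 642 to 1246 CPM in Doxo+Cyta and 591 to 639 CPM in Doxo+Cyta+DAC. The sum did not stand for each gene. In Doxo+Cyta+DAC relative to NT 4 were higher and 2 lower, against 24.9% and 23.7% of all genes. Their median log2 fold change there was 0.07. Of the 10 erythroid and megakaryocytic markers tested, 5 were lower in Doxo+Cyta+DAC than in NT, against 23.7% of all genes. The part of these lists in the chaperone levels was not tested. The labels name no batch, so no comparison could be repeated within batches.

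**Figure D4:**
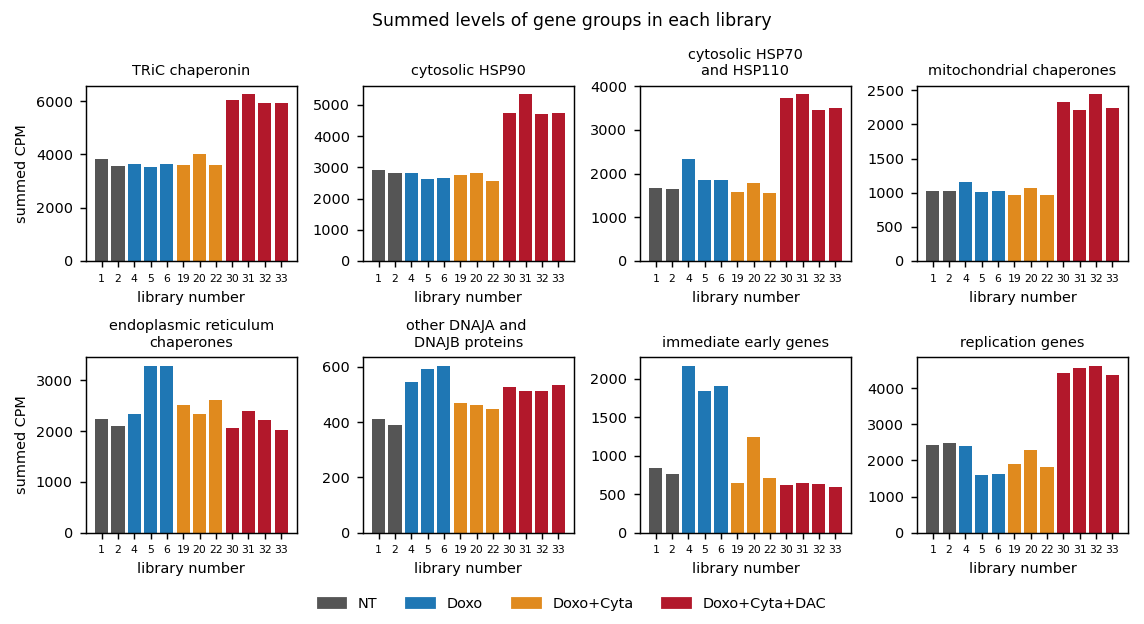
Bars give the summed CPM of a gene group (vertical axis from 0) in each of the 12 libraries, coloured by group. The TRiC, HSP90, HSP70 and HSP110, mitochondrial and replication panels are highest in the 4 Doxo+Cyta+DAC libraries, and the immediate early panel is highest in the 3 Doxo libraries.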

How the data were processed

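HEL cells were sequenced as paired-end TruSeq libraries. The authors aligned the reads to GRCh38 with Bowtie2 2.2.8 and counted fragments per gene with featureCounts 1.6.0, without regard to strand and leaving out chimeric fragments. The deposited counts are whole numbers and not normalized. Fragments marked as aligned to several places or overlapping several genes are left out by default, and how fragments of near-identical genes were aligned is not given in the sources used here. The annotation version is likewise not given. The deposited gene lengths were not used. Exon lengths were taken from the deposited exon positions, each base counted once.

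Of 26485 genes, 4 lacked a count and were left out. The other genes were filtered with filterByExpr, scaled by TMM and fitted in edgeR 4.0.16 (R 4.3.3) with glmQLFit and glmQLFTest on all 12 samples, which entered their groups from the labels. Tests were two-sided, with Benjamini-Hochberg adjustment over the 14164 genes tested in each of 6 comparisons. The code was tested on simulated data. CPM use the tested total times the TMM factor. The heat map used log2(CPM + 1), and the other plots used CPM, fitted log2 fold changes or summed CPM. The series describes 3 non-treated replicates, and the 2 that are labelled were used. Replicates are separate cultures of 1 barcoded line, so p-values measure the spread between cultures.

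Members and lists were chosen with earlier results of these data known. The main chaperone of each compartment, every TRiC subunit and both factors were always named, with the 8 called members of largest change per direction and comparison whose higher group averaged 5 CPM or more, and members apart in Doxo+Cyta+DAC and called in its 3 comparisons. HSPA6, HSPB6, DNAJB11, DNAJC22 and genes of the further lists were named after their values were seen. The alternatives were RLE and upper-quartile scaling, DESeq2 1.42.0, other filters, only the groups compared and leaving out each replicate. Promoter windows came from RefSeq (GRCh38.p14). Limits on low levels cover counting error only.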

Additional observations from a re-analysis of the deposited data

Results flagged for a closer look

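Of the 48 named members, 2 had 1 library in the group of 4 that stood apart from its mates by more than Dixon's 95% limit for a gap relative to the range. Chance flags about 1 in 20 groups. DNAJC18 was at 13.8 CPM in Doxo+Cyta+DAC 31 and at 18.4 to 19.0 CPM in the other 3 libraries, with a gap of 0.906 of the range. HSPA4 was at 298 CPM in the same library and at 277 to 280 CPM in the others, with a gap of 0.849 of the range. Both members stayed called in all 3 comparisons of Doxo+Cyta+DAC without that library.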

How the results depend on the processing

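The counts of members called in the 3 comparisons of Doxo+Cyta+DAC stayed within 1.5 times their main value under every scaling, filter, test and sample choice run, between 34 and 46 of 72 relative to NT, 43 and 54 relative to Doxo, and 46 and 52 relative to Doxo+Cyta. The other comparisons depended on the choices. In Doxo relative to NT the count of 8 was 13 with DESeq2 and 0 to 20 when 1 replicate was left out. In Doxo+Cyta relative to NT the count of 1 was 7 with DESeq2, 3 without a filter on low counts, 0 with only the groups compared, and 0 to 5 when 1 replicate was left out. In Doxo relative to Doxo+Cyta the count of 3 was 1 with upper-quartile scaling, 8 with DESeq2, 1 with only the groups compared, and 1 to 5 when 1 replicate was left out. No named member changed direction while called, and RLE scaling changed no call among 288 results. Leaving out an NT replicate left 1, whose spread was then taken from the other groups. No paired analysis was possible because the groups share no replicate numbers. NT had 2 libraries, and members with few counts (HSPA1A, HSPA6, HSPB6) were imprecise.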
